A study of Mus musculus with 2 samples.

Results

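The desmosome genes described here are Perp, Dsp, Jup, Pkp1, Pkp2, Pkp3, Dsg2, Dsc2, Dsg3 and Dsc3, measured in dissected mouse ureters. They were chosen by gene name, with earlier results of these data known. On the array 16 probes carry these 10 names, of 39429 probes and 29875 gene names in all. Total RNA of whole ureters from NMRI embryos at E14.5 was hybridised to 2 two-colour arrays, each holding one knockout and one control sample in different dyes. Knockout samples are labelled Pax-cre/+;Smad4(fl/fl), which the series title gives as Pax2-cre/+;Smad4(fl/fl) and as Smad4cKO (UE). Controls are labelled Smad4(fl/?), with the second allele unstated, so that every sample carries at least one floxed allele. On replicate 1 both samples are female and the knockout was labelled with Cy3; on replicate 2 both are male and the knockout carried Cy5, so sex and dye cannot be told apart. The sources used here do not give the number of embryos per sample. The p-values rest only on the spread between these 2 arrays, which limma, the test used here, pools in part over all genes. The comparison asks which of these genes differ when Smad4, the shared mediator of TGF-beta and BMP signals, is deleted where the Cre is active. Pax2 is active in the nephric duct and the epithelium it forms, while the RNA came from the whole organ.

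Desmosomes are spot-like junctions that tie the keratin filaments of neighbouring epithelial cells together and give stratified epithelia their mechanical strength. The cadherins of the desmoglein (Dsg) and desmocollin (Dsc) families meet between the cells. Plakoglobin (Jup) and the plakophilins (Pkp) bind the cadherin tails inside the cell, and desmoplakin (Dsp) links them to keratin. Perp is a tetraspan membrane protein of the PMP22 family, first known as a p53 target in cell death and later as a target of p63 needed for desmosomes in stratified epithelia. The epithelium of the ureter becomes urothelium, a stratified lining that bears stretch as urine passes.

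The values rest on 60-base probes, and the sequences below show what was hybridised for the members outside the cadherin cluster. They are 30-base windows of the array's own probe sequences, 5′ to 3′, and positions are those of the whole probes on mm9. Capitals mark a CT repeat in the Pkp3 probe. Perp has a single probe (chr10:18576697-18576756, + strand). Dsp has 2 (chr13:38290121-38290180 and chr13:38285480-38286579, + strand), and the 60 bases of the second are spread over 1100 bases of genome, so that this probe crosses a splice junction. Jup (chr11:100238038-100238097, - strand), Pkp1 (chr1:137768027-137768086, - strand), Pkp2 (chr16:16272648-16272707, + strand) and Pkp3 (chr7:148276140-148276199, + strand) have 1 probe each. The windows start at base 1 of the probe, and at base 19 for Pkp3. Exons and coding parts of mm9 were not used here.
Perp: gaaaatttgggaatgcgtgtctctgaatac
Dsp, first probe: aaattacactgactactggtggcttagtac
Dsp, second probe: aatttgagacaggaaattgagaaattccaa
Jup: ccgggatcccatgaaccgcatggagatctt
Pkp1: catcttgtatgagaaccttgtgctgaacgg
Pkp2: tgagtgtgcaccggaggaacacctgagaaa
Pkp3: aggacCTCTCTCTCTCTCTCTCTCTcctct
The CT repeat of the Pkp3 probe is 20 bases long. Of the 39429 probes, 0.223% hold a repeat of alternating bases at least that long, and no other member probe has one longer than 6 bases. GC content ran from 31.7% for a Dsg2 probe to 55.0% for the Jup and Pkp3 probes.

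To be kept, a probe needed 2 or more of its 4 spots well above background in one genotype's channel of each array. On that rule 9 of the 16 probes were kept, and 8 of the 10 genes were tested, each by its brightest kept probe. Perp, Dsp, Pkp2, Pkp3, Dsg2 and Dsc2 were well above background in all 4 channels. Jup and Pkp1 entered through their knockout channels alone and were well above background in labelled control on 1 of the 2 arrays each. Dsg3 and Dsc3 were not tested: none of the spots of the 3 Dsg3 probes and the 2 Dsc3 probes was well above background in any channel. Across the arrays, between 66.5% and 69.1% of all probes were well above background in a channel. For Smad4 itself the log2 ratio, knockout over control, was -0.58 and -0.08 on the 2 arrays (limma adjusted p = 1.00); the position of its probe relative to the loxP sites was not examined, so this value does not check the labels. Directions here and below follow the dyes in the labels, and are opposite to those of the authors' deposited table if its values are read in the order of the sample titles.

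**Figure D1:**
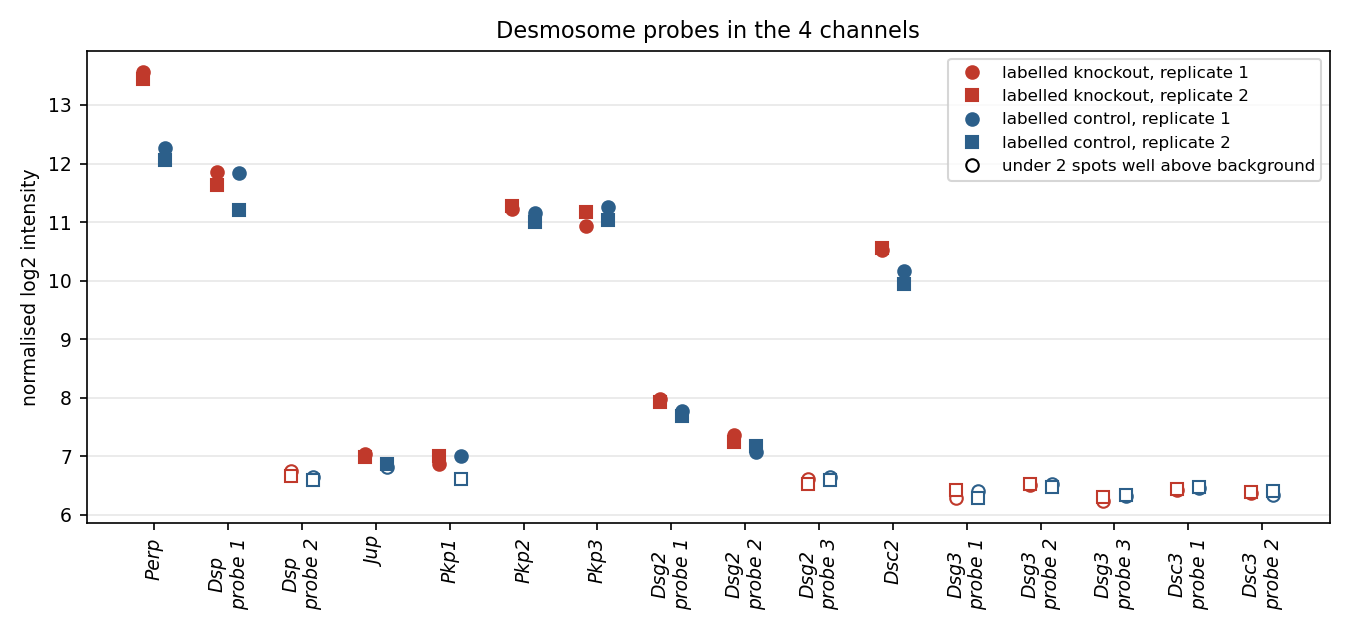
Normalised log2 intensity (vertical axis) of each of the 16 probes of the 10 genes (horizontal axis) in the 4 channels, labelled knockout in red and labelled control in blue, replicate 1 as circles and replicate 2 as squares. Open symbols mark channels with fewer than 2 spots well above background; heights are not comparable between probes. Perp stands at 13.56 and 13.45 in labelled knockout and at 12.27 and 12.06 in labelled control, and the Dsg3 and Dsc3 probes are open in every channel.

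Perp was the one member that passed the test. Its normalised log2 intensity was 13.56 and 13.45 in labelled knockout and 12.27 and 12.06 in labelled control, on replicates 1 and 2. Both knockout channels lay above both control channels, and the groups were further apart than the samples within them. The log2 ratio of knockout over control was 1.28 on replicate 1 and 1.39 on replicate 2, a mean of 1.34 ± 0.08 (SD, n = 2 arrays), or 2.52-fold higher in labelled knockout. In whole ureters, more cells of a type and more RNA per cell cannot be told apart. In limma across all genes the adjusted p was 0.00126, with a 95% interval of 1.07 to 1.60. The 4 spots of the probe had an SD of 0.0414 on replicate 1 and 0.0105 on replicate 2 in log2 ratio. By mean log2 ratio Perp ranked 7 from the top among 20104 genes tested. With median centring in place of loess, and with dim probes kept, the mean ratio stayed at 1.34 but did not pass (limma adjusted p = 1.00 and 0.346). Median centring moved the arrays further apart, to 1.20 on replicate 1 and 1.49 on replicate 2. The adjusted p ran from 1.00e-06 to 1.00 over 11 alternatives, and Perp passed in 9. Aquantile scaling after loess, counted among the 9, leaves every ratio unchanged and so repeats the main test.

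Perp was the only one of the 8 tested members to pass, beside 0.328% of all genes tested (0.229% were higher in labelled knockout, 0.0995% in labelled control). Before adjustment Perp and Dsc2 were below 0.05 in limma, 2 of 8, beside 4.55% of all genes. By size, Perp was the only member that differed by 1.5-fold or more on both arrays in the same direction, beside 0.368% of all genes (0.264% higher in labelled knockout). The median log2 ratio of the 8 was 0.20, with 0.15 on replicate 1 and 0.33 on replicate 2, beside a median of -0.0044 over all genes tested. Both knockout levels lay above both control levels for 5 of the 8, beside 13.9% of all genes, and for Perp, Dsc2, Dsg2, Pkp2 and Jup the ratio was above 0 on both arrays, as it was for Dsp (6 of 8, beside 21.7%). On replicate 1 the Dsp ratio was only 0.01, and -0.03 with median centring. No member was below 0 on both arrays, beside 24.6% of all genes, or had both knockout levels below both control levels, beside 15.3%. Pkp1 and Pkp3 had opposite signs on the arrays and were brighter in Cy5 on both (2 of 8, beside 53.7% with opposite signs and 27.1% also brighter in Cy5). Jup and Pkp1 reached the test only through their knockout channels, which favours higher knockout levels among them, and no test was made over the list. The list, Perp included, was drawn up with earlier results of these data known. Its counts beside the shares over all genes are therefore description only.

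**Figure D2:**
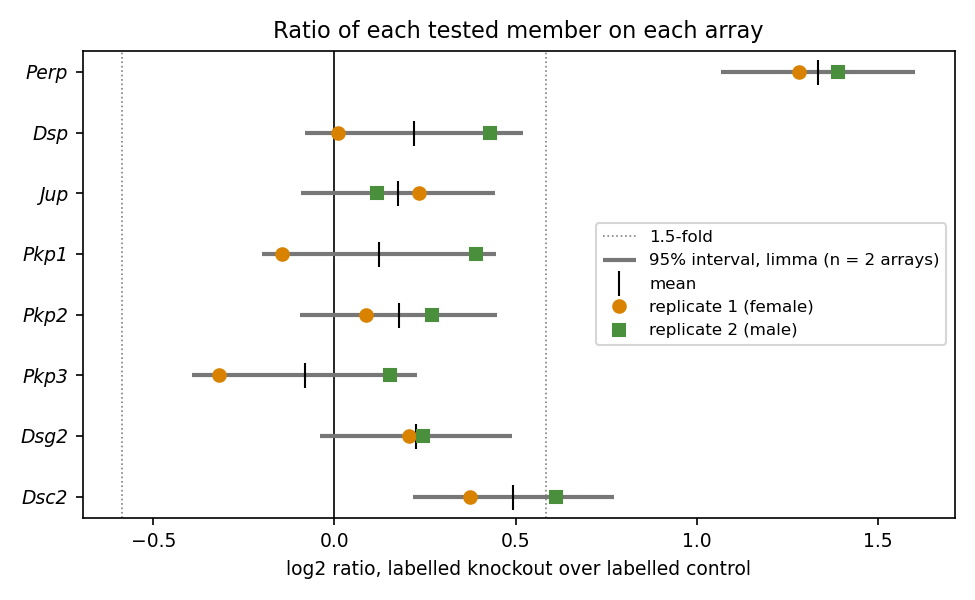
Log2 ratio of labelled knockout over labelled control (horizontal axis) for the 8 tested members (vertical axis), with replicate 1 as orange circles, replicate 2 as green squares, the mean as a tick and limma's 95% interval as a bar; dotted lines mark 1.5-fold. The interval of Perp, 1.07 to 1.60, lies above those of the other 7 members, of which the highest ends at 0.77 for Dsc2.

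The ratio of Perp stood apart from the other members on each array. It exceeded the median of the other 7 by 1.19 on replicate 1 and 1.12 on replicate 2, and the next highest member, Dsc2 on both arrays, by 0.91 and 0.78. Its 95% interval shared no value with that of any other tested member. Perp and these genes were compared by their intervals only, since the fit tests each gene against 0.

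Among the cadherins, Dsc2, the desmocollin of simple epithelia and of the deeper layers of stratified ones, gave the highest ratio after Perp. Its log2 intensity was 10.53 and 10.55 in labelled knockout and 10.16 and 9.94 in labelled control, without overlap. The log2 ratio was 0.37 on replicate 1 and 0.61 on replicate 2, a mean of 0.49 ± 0.17 (SD, n = 2), or 1.41-fold, and it did not pass over all genes (limma adjusted p = 0.295, 95% interval 0.22 to 0.77). Over 11 alternatives the adjusted p ran from 0.155 to 1.00. The interval leaves out 0 before adjustment and reaches 0.77, so changes of the size of Perp's lie outside it.

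Dsg2, the desmoglein found wherever desmosomes form, gave a ratio above 0 on both arrays that did not pass. Its brighter probe read 7.98 and 7.92 in labelled knockout and 7.77 and 7.68 in labelled control, again without overlap. Its log2 ratios were 0.20 and 0.24, a mean of 0.22 ± 0.03 (SD, n = 2; limma adjusted p = 1.00, 95% interval -0.04 to 0.49). A second Dsg2 probe, kept but not used for the test, read 0.30 on replicate 1 and 0.08 on replicate 2, in the same direction, and the remaining probe, at 6.53 to 6.65 in all 4 channels, was not well above background. Read as Agilent's processed signals, Dsg2 had a mean of 0.33.

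The desmosomal cadherins lie side by side on mouse chromosome 18. On mm9 the array's 15 probes for 9 of them span 639.2 kb, from chr18:20122029 to chr18:20761236, in the order Dsc3, Dsc2, Dsc1, Dsg1c, Dsg1a, Dsg1b, Dsg4, Dsg3 and Dsg2, with the desmocollins on the - strand and the desmogleins on the + strand. Within this cluster Dsc2, Dsg1c and Dsg2 reached the test. Dsg3 and Dsc3, which belong to the basal layers of skin-like epithelia, read 6.23 to 6.53 in log2 intensity in every channel, none of it well above background, so no fold is given for them. Dsg1c read a log2 ratio of -0.36 on replicate 1 and 0.05 on replicate 2 (adjusted p = 1.00); the array file also lists a Dsg1b transcript for its probe, so the reading may belong to either.

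Desmoplakin, the plakin that ties the junction to keratin, gave unlike ratios on the 2 arrays. The brighter Dsp probe read 11.85 and 11.63 in labelled knockout and 11.83 and 11.20 in labelled control, so the groups overlapped. Its log2 ratio was 0.01 on replicate 1 and 0.43 on replicate 2, a mean of 0.22 ± 0.30 (SD, n = 2; limma adjusted p = 1.00, 95% interval -0.08 to 0.52). The junction-crossing Dsp probe was not well above background in any channel, at 6.59 to 6.74. The sequences of both Dsp probes are given above.

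The armadillo proteins of the plaque did not pass. Jup, which encodes plakoglobin, was dim, at 7.04 and 6.98 in labelled knockout and 6.81 and 6.86 in labelled control. The knockout levels lay above the control levels, with log2 ratios of 0.23 and 0.12, a mean of 0.18 ± 0.08 (SD, n = 2; limma adjusted p = 1.00, 95% interval -0.09 to 0.44). Only 1 Jup probe is on the array, and in labelled control it was well above background on replicate 2 alone. With Agilent's processed signals the Jup ratio was 0.89 on replicate 1 and 0.29 on replicate 2, a mean of 0.59 (adjusted p = 0.160; over 10 alternatives 0.159 to 1.00).

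Pkp2, the plakophilin of simple epithelia and heart muscle, read 11.23 and 11.27 in labelled knockout and 11.15 and 11.00 in labelled control. The groups did not overlap but lay close, with log2 ratios of 0.09 and 0.27 and a mean of 0.18 ± 0.13 (SD, n = 2; limma adjusted p = 1.00, 95% interval -0.09 to 0.45). Pkp3, a plakophilin of most simple and stratified epithelia, read 10.93 and 11.18 in labelled knockout and 11.25 and 11.03 in labelled control. Its log2 ratios had opposite signs, -0.32 and 0.15 (mean -0.08 ± 0.33, SD, n = 2; limma adjusted p = 1.00, 95% interval -0.39 to 0.23). Pkp1, a plakophilin of the upper layers of skin, was close to background at 6.87 and 7.0 in labelled knockout and 7.01 and 6.61 in labelled control. Pkp1 read -0.14 on replicate 1 and 0.39 on replicate 2 (mean 0.12 ± 0.38, SD, n = 2; limma adjusted p = 1.00), and with processed signals -0.38 and 1.46.

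**Figure D3:**
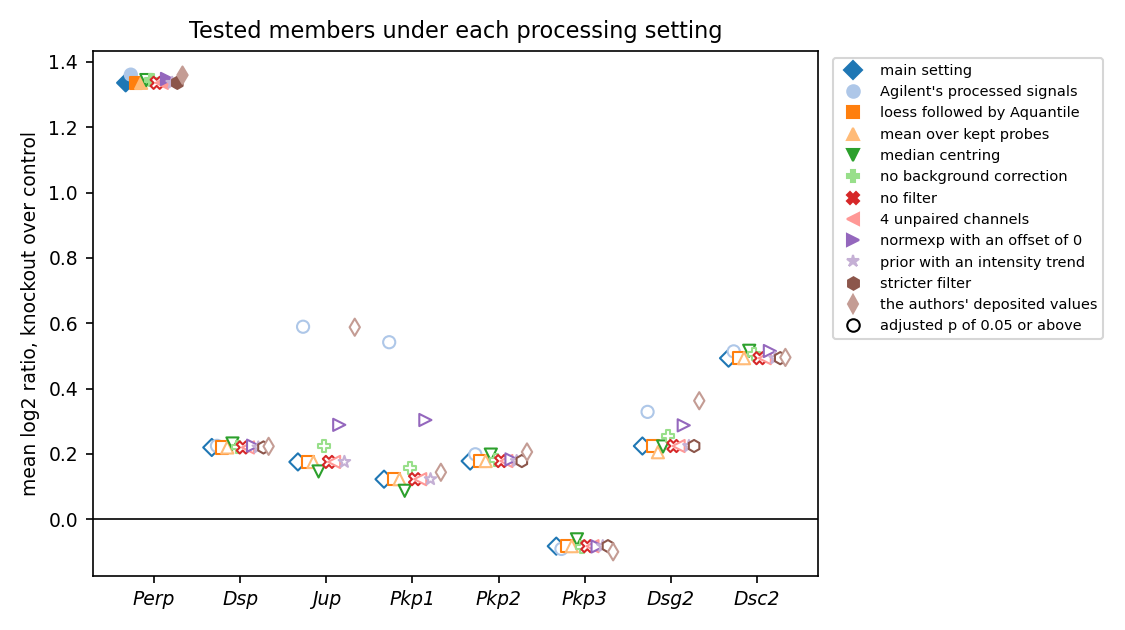
Mean log2 ratio of labelled knockout over labelled control (vertical axis) for the 8 tested members (horizontal axis) under the main setting and 11 processing alternatives, each with its own symbol; filled symbols passed an adjusted p of 0.05 and open ones did not. The mean of Perp lies between 1.34 and 1.36, whereas Jup moves from 0.15 to 0.59 and Pkp1 from 0.09 to 0.54. Settings that change only the filter, the variance prior, the pairing or the Aquantile scaling reuse the main ratios and so show the same means.

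In the authors' deposited table, which gives a signed fold per probe, Perp stands at -2.48 on replicate 1 and -2.65 on replicate 2. The sample titles name the knockout first, and read in that order the sign would be opposite to the one used here; set against the scanner's red and green signals and the dyes in the labels, the table runs as control over knockout on both arrays. In the authors' deposited table Dsc2 stands at -1.30 and -1.53, Dsp at -1.02 and -1.33 and Pkp3 at 1.26 and -1.10, and all 5 probes of Dsg3 and Dsc3 stand at exactly 1. Turning every sign would make Perp lower in knockout and leave its size and test as they are.

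Genes near Perp were sought among those with a curated symbol, leaving out predicted genes and unnamed transcripts. By Euclidean distance over the 2 arrays, the pairs of ratios nearest to that of Perp were those of Upk1b, Pdzk1 and Gsdmc3. Upk1b, a uroplakin of the urothelial surface, read 1.21 and 1.40 (distance 0.0689), the scaffold protein gene Pdzk1 1.34 and 1.31 (0.0928), and the gasdermin gene Gsdmc3 1.21 and 1.47 (0.110). With 2 arrays this measure says only that the ratios were of like size.

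**Figure D4:**
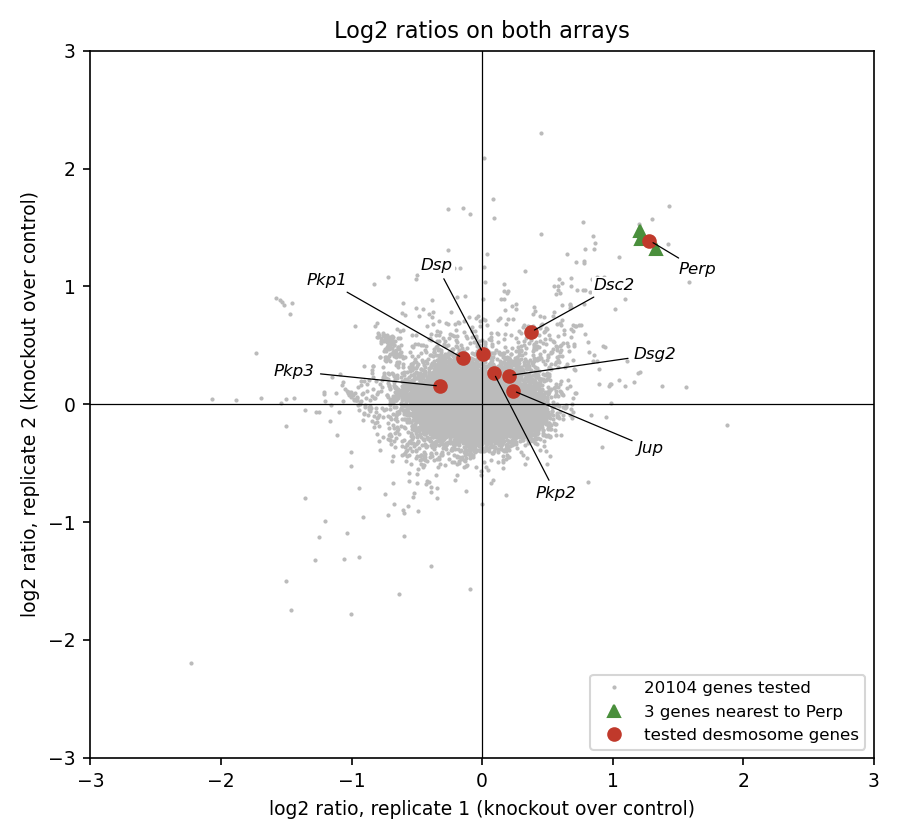
Log2 ratio of labelled knockout over labelled control on replicate 1 (horizontal axis) and replicate 2 (vertical axis) for 20104 genes (grey), with the 8 tested desmosome genes in red and the 3 genes nearest to Perp as green triangles. The nearest genes were sought among those with a curated symbol. Perp, at 1.28 and 1.39, lies in the sparse upper right, Dsc2 at 0.37 and 0.61 on the edge of the cloud, and the other 6 within it. Across all genes tested the ratios of the 2 arrays were hardly correlated (Pearson r 0.0168, Spearman rho -0.082).

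Other genes of the desmosome and its neighbourhood were read from lists of known genes. Of 10 further desmosome genes, 5 were tested and none passed (median log2 ratio -0.02; 2 were above 0 on both arrays). The 2 were Ppl and Evpl, which encode periplakin and envoplakin, plakins that sit at desmosomes and in the cornified envelope. Ppl read 0.48 on replicate 1 and 0.62 on replicate 2 (limma adjusted p = 0.176), and Evpl 0.32 and 0.65 (adjusted p = 0.351), close to the values of Dsc2. Of the 6 relatives of Perp in the PMP22 family, 5 were tested and none passed. Their mean log2 ratios ran from -0.08 for Emp2 to 0.08 for Emp3, with a median of -0.0021, and Pmp22 read 0.05 and -0.02. The 95% intervals of Emp2 and Emp3 ended at -0.34 and 0.35 on their far sides.

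Of 14 genes of p53 and p63 and their targets, 14 were tested and 1 passed, beside 0.328% of all genes tested, with a list median of 0.03. The gene that passed was Sfn, a 14-3-3 protein of stratified epithelia that p53 induces and p63 regulates, at 0.67 on replicate 1 and 0.85 on replicate 2 (mean 0.76 ± 0.12, SD, n = 2; 1.69-fold higher in labelled knockout, limma adjusted p = 0.0359). It did not pass with median centring (adjusted p = 1.00), with dim probes kept (0.611) or with the 4 channels unpaired (0.120), and passed in 8 of 11 alternatives; over the 11 the adjusted p ran from 0.00322 to 1.00. The 8 include Aquantile scaling after loess, which repeats the main test. Cdkn1a, the p53 target that halts the cell cycle, read 0.26 and 0.45 (adjusted p = 0.762), and Zmat3 -0.23 and -0.14 (adjusted p = 1.00). Trp63 and Trp53, named here after their values were seen, had opposite signs on the arrays, at -0.29 and 0.305 for Trp63 and -0.17 and 0.24 for Trp53.

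In hemidesmosomes, which anchor epithelium to the basement membrane, none of 9 genes passed (median 0.18). Lama3 and Lamb3, chains of laminin-332, read 0.71 and 0.51 and 0.40 and 0.50 (limma adjusted p = 0.122 and 0.342), and the integrin gene Itgb4 0.27 and 0.13; Lama3 passed in 6 of 11 alternatives. None of 11 adherens junction genes passed (median -0.03). Nectin4 read 0.39 and 0.37 (adjusted p = 0.566), Cdh1, E-cadherin, 0.44 and 0.19 (0.987), and Cdh3, P-cadherin, -0.61 and 0.27 (1.00). Of 10 keratins, the filaments that desmoplakin holds, 9 were tested and none passed, with a median of 0.27. On both arrays 7 were above 0, beside 21.7% of all genes. Krt20, a keratin of urothelial surface cells, read 0.70 and 0.62 (adjusted p = 0.0646, and passed in 7 of 11 alternatives), Krt19 0.56 and 0.49 (0.194) and Krt13 0.35 and 0.21 (1.00).

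**Figure D5:**
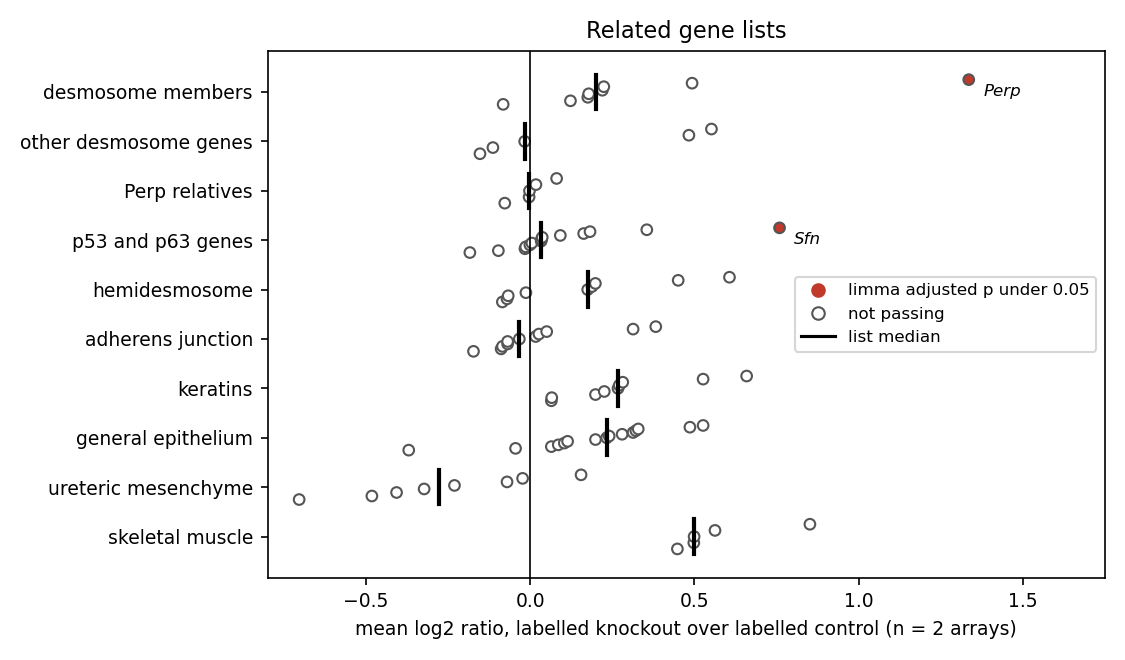
Mean log2 ratio of labelled knockout over labelled control over the 2 arrays (horizontal axis) for each tested gene of 10 lists (vertical axis), with genes that passed limma's adjusted p of 0.05 filled and the list median as a bar. Perp at 1.34 and Sfn at 0.76 are the filled genes, and the keratin and general epithelium lists have medians of 0.27 and 0.23. A few genes stand in more than one list.

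Marker lists of the ureter's main tissues were read: 15 of 15 general epithelial, 8 of 8 ureteric mesenchyme and 6 of 6 smooth muscle markers were tested. No list of urothelial surface genes was among them. Epithelial markers leaned the same way as the desmosome genes. On both arrays 12 of the 15 were above 0 and 1 below, with a median log2 ratio of 0.30 on replicate 1 and 0.19 on replicate 2, and none passed. Over all genes tested, 21.7% were above 0 on both arrays and 24.6% below, the shares to set beside the marker counts here and below. Their summed normalised intensity was 260556 and 231900 in labelled knockout and 226241 and 215142 in labelled control, a ratio of 1.15 and 1.08. These sums and those below weigh the brightest probes most, and heights are not comparable between probes. The brightest epithelial marker was Krt18 (16.72 and 16.64 in labelled knockout), with log2 ratios of 0.07 and 0.06. Perp exceeded the median of this general epithelial list by 0.98 and 1.20 in log2 ratio, and its highest marker on each array by 0.71 and 0.90. The list holds no uroplakins, so Perp was not set apart from urothelial genes. The uroplakin genes Upk1b, Upk1a and Upk3a read 1.21 and 1.40, 1.20 and 1.53, and 1.43 and 1.68, beside 1.28 and 1.39 for Perp. Upk1a and Upk3a are named here after their values were seen. The other tested members ran from -0.08 for Pkp3 and 0.12 for Pkp1 to 0.49 for Dsc2 in mean, beside an epithelial range of -0.37 to 0.53. Of these, Jup and Pkp1 had passed the filter through their knockout channels only.

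Ureteric mesenchyme markers leaned the other way, with 5 of 8 below 0 on both arrays, none passing, and sums of 389377 and 446145 in labelled knockout against 560357 and 482172 in labelled control. The brightest of them, Col1a2 (16.95 and 17.53 in labelled knockout), had log2 ratios of -0.91 and 0.10. Skeletal muscle markers, of which 5 of 6 were tested, were above 0 on both arrays in all 5, with sums of 5930 and 4368 against 3098 and 3817. Of 6 mesothelial markers Upk3b, which is also a uroplakin gene and is named here after its value was seen, passed (1.71-fold higher in labelled knockout, limma adjusted p = 0.0476), beside 0.328% of all genes tested. It was dim, at 7.69 and 7.91 in labelled knockout and 7.09 and 6.96 in labelled control, and was not read under the alternatives. Of the 6 mesothelial markers 3 were above 0 on both arrays, with sums of 14426 and 18211 against 16564 and 16369. Of 7 squamous keratinocyte markers 3 were above 0 on both arrays and none passed, with a median of 0.0093 and sums of 10614 and 10896 against 11335 and 9741. Of 6 endothelial markers 3 were below 0 on both arrays and 0 above, none passing, with sums of 24037 and 20210 in labelled knockout against 27682 and 24100 in labelled control, a ratio of 0.868 and 0.839. Of 6 neural and glial markers 1 was below 0 on both arrays and 0 above, none passing, with sums of 102528 and 120096 against 147678 and 119140. Of 6 smooth muscle markers 3 were above 0 on both arrays and 1 below, none passing, with a ratio of sums of 0.962 and 1.19. Of 5 macrophage markers 2 were above 0 on both arrays and 0 below, none passing, with a ratio of sums of 0.997 and 1.04. The part of these cell types in the desmosome values was not tested.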

How the data were processed

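The deposited scanner files give each spot's intensity (mean signal, median local background and a processed signal in Cy3 and Cy5), made with Agilent Feature Extraction 10.7.3.1 by the submitters' processing notes. Their log10 ratio (red to green), per the file headers, entered no test. The authors' deposited series table holds 1 signed fold per probe, treated as a score; on the log2 scale it correlated with the red to green ratio at 0.822 (replicate 1) and -0.739 (replicate 2); its scaling and centring are not given in the sources used here. From 150 ng of total RNA per sample, each array gave 4 spots a probe, and none was saturated.

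Background was corrected by normexp (offset 50), then each array by loess; control spots had no weight, and outlier spots (3.52% and 3.66%) were left out. Spots were averaged, the brightest kept probe stood for a gene, and the sign of replicate 1 was changed, giving knockout over control on both arrays. Channel levels were taken after Aquantile scaling. Probe names were updated by accession or symbol through a RefSeq table (GRCm38.p6), which left 7458 probes with the file's name. limma 3.58.1 (R 4.3.3) tested whether the mean of the 2 log2 ratios differs from 0 (two-sided; Benjamini-Hochberg over 20104 genes), with 9.21 prior degrees of freedom for the variance. Knockout and control share an array, which pairs them. On simulated data of 20104 genes and 2 arrays, 30 of 67 planted 1.5-fold, 66 of 67 planted 2-fold and 66 of 66 planted 3-fold changes passed, with 7 false calls. The simulated noise was normal and independent, with variances drawn from limma's fitted prior and no dye or sex effect. These rates therefore need not hold for the real arrays. Named are all members, of each related list those that passed and up to 3 with the largest absolute mean, and the 3 genes with a curated symbol nearest to Perp. Members and lists were chosen with earlier results of these data known. Alternatives were the background correction, the scaling, the filter on dim probes, the probe rule, the deposited values, the variance prior, unpaired channels, a fold rule and each array alone. Both arrays lay on one slide and were scanned together. Plots used matplotlib 3.10.9.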

Additional observations from a re-analysis of the deposited data

Results flagged for a closer look

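Pkp1 and Pkp3 had ratios of opposite sign on the female and the male array. The log2 ratio (knockout over control) of Pkp1 was -0.14 on the female array and 0.39 on the male array, and that of Pkp3 was -0.32 and 0.15. The difference between the arrays was not tested, since each sex has 1 array and dye changed with sex. On the male array 0 of the 4 Pkp1 spots were well above background in labelled control, so its 0.39 is taken against a background reading. Both genes were brighter in Cy5 on both arrays, as were 27.1% of all genes tested, and 53.7% of all genes had opposite signs.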

How the results depend on the processing

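Perp kept its direction in all 13 alternatives, at 1.28 to 1.39 with each array alone, but in several of them the direction could not change. The changed filters, the mean over kept probes, Aquantile scaling, the prior with trend and the unpaired channels reuse the ratios of its single probe. The deposited values had first been turned to follow the dyes. Perp missed the threshold with median centring (1.34, adjusted p = 1.00) and with dim probes kept (1.34, adjusted p = 0.346), where 0 members and 0 genes passed in limma (347 and 1097 genes at an unadjusted p under 0.05). The cause was not tested. Over all genes, the count of 66 became 194 with Agilent's processed signals, 115 without background correction, 131 with an offset of 0, 191 with the authors' deposited values and 156 with a prior with trend. Without the pairing by array (no replicate block, 4 channels as unpaired samples) it was 26, and Perp passed (adjusted p = 0.00943). The members' median of 0.20 became 0.42 with processed signals, and 0.15 to 0.33 with each array alone. The other tested members passed in none of the alternatives that allow a test. The alternatives for genes of the related lists were added after seeing the data. With 2 arrays no count could be made from a single one, and for Jup and Pkp1, near background, signal limits the ratio.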
